A study of Arabidopsis thaliana with 24 samples.

Results

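The comparison described here is the effect of brassinolide (BL), a brassinosteroid hormone, in roots whose auxin synthesis was inhibited with L-kynurenine (Kyn). It rests on 12 of the 24 libraries of the series: 6 from roots on 0.8 nM BL with 4 µM Kyn (BL+Kyn) and 6 from roots on 4 µM Kyn alone, with 2 libraries each at 12, 24 and 48 h. They were chosen by their treatment label, and BL+Kyn was set against Kyn within each time and then averaged over the 3 times. The other 12 libraries, from roots on 0.8 nM BL alone and on mock medium at the same times, are used to ask whether BL acted differently without Kyn. All seedlings were Arabidopsis thaliana of the Col-0 accession, germinated for 3 days before transfer, and only the end of the root near its tip was taken. Every root in the main comparison, its control included, therefore carried the Kyn treatment, and no mutant was used. The labels call the 2 libraries of a group biological replicates without giving the number of seedlings in each.

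Brassinosteroids are perceived at the plasma membrane by the receptor kinase BRI1 with its co-receptor BAK1. The signal inactivates the kinase BIN2, so that the transcription factors BZR1 and BES1 reach the nucleus, where they repress genes of brassinosteroid synthesis and act on many genes of cell wall growth. Auxin is made from tryptophan by aminotransferases of the TAA1 family and by YUCCA monooxygenases, and Kyn inhibits the aminotransferase step. In root tips both hormones act on the balance between dividing meristem cells and elongating, differentiating cells.

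BL changed the level of many transcripts in Kyn roots. Averaged over the 3 times, 5744 of 18948 tested genes were called at an adjusted p under 0.05 (limma with Benjamini-Hochberg adjustment over all genes), which is 30.3% of them, with 2939 higher (15.5%) and 2805 lower (14.8%) in BL+Kyn. The count was 4495 without the second Kyn library of 12 h, of which 4396 were also called with it. At 12 h 128 genes were called (0.676%), 71 higher (0.375%) and 57 lower (0.301%). At 24 h 1017 were called (5.37%), 509 higher (2.69%) and 508 lower (2.68%). At 48 h the number was 4141 (21.9%), with 2122 higher (11.2%) and 2019 lower (10.7%). All groups share 1 estimate of the spread, so a wide pair of libraries at 48 h can also lower the counts at 12 and 24 h. The counts alone therefore do not measure how the effect grew with time. In 708 genes (3.74%) all 6 BL+Kyn libraries lay above all 6 Kyn libraries, and in 1019 (5.38%) they lay below. Values below are the authors' normalized counts per library, and gene coordinates are those of the deposited table (TAIR10). Changes are fitted differences of log2(normalized count + 1), BL+Kyn minus Kyn, which understate the change of low genes, and "called", "rose" and "fell" refer to the averaged test unless a time is named. In whole root tips, fewer cells of a type and less RNA per cell cannot be told apart. Counts of list members that rose or fell are to be read beside the 15.5% and 14.8% of all tested genes.

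BL+Kyn libraries held 8568834 to 21058895 reads and Kyn libraries 7368066 to 24525245. Summed over 17 genes of shoot photosynthesis, the second Kyn library of 12 h reached a normalized count of 120297, against 2570 to 4168 in the other 5 Kyn libraries and 4331 to 10178 in BL+Kyn. Of the BL libraries, the second of 12 h reached 103715. Root markers were present in all 12 libraries, with endodermis sums of 17424 to 30585 in BL+Kyn and 14714 to 23664 in Kyn. None of the 17 genes was called, but the list's median log2 change was -1.77 at 12 h with this Kyn library and 0.88 without it, 0.74 at 24 h and 1.07 at 48 h. These leaf transcripts thus had higher medians in BL+Kyn at 24 and 48 h, beside the other changes, and their part in them was not tested. The 2 BL+Kyn libraries of 48 h differed from each other by a median of 0.322 on the log2 scale over 10387 genes with a mean of at least 100, against 0.133 to 0.192 within the other 11 groups. The number of genes called at 48 h was 1764 without the first of them and 5626 without the second.

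**Figure D1:**
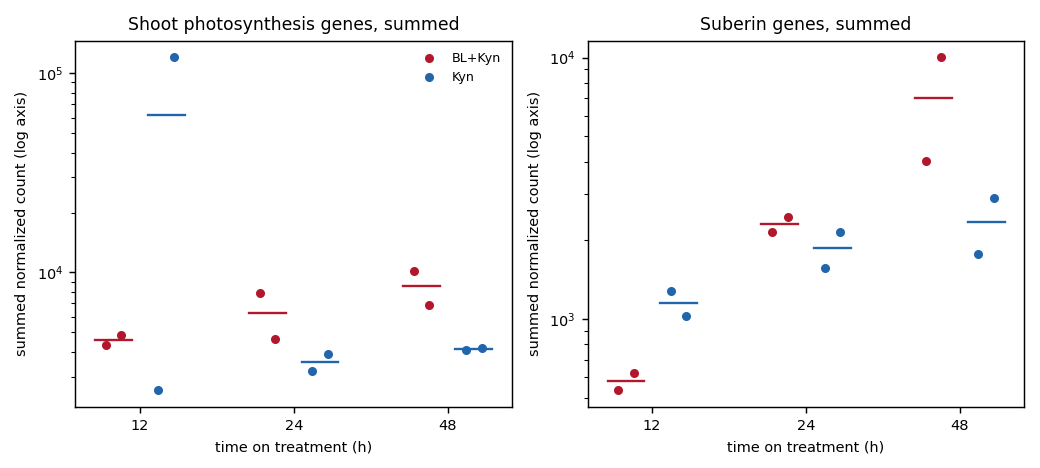
Summed normalized counts (log axes) of 17 shoot photosynthesis genes and of 12 suberin genes against the time on treatment, with BL+Kyn left of Kyn, 1 point per library and a bar at the mean of 2. The second Kyn library of 12 h stands at 120297 in the left panel, and the suberin sums of BL+Kyn lie below those of Kyn at 12 h and have the highest values, 4015 and 10014, at 48 h.

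Among the genes that make brassinosteroids 4 of 10 fell, whereas all 3 tested genes that inactivate them rose. BR6OX2, the cytochrome P450 of the last steps to brassinolide (chromosome 3, 11810737 to 11813765), had normalized counts of 80.6 and 66.7 at 12 h, 77.0 and 60.9 at 24 h and 46.4 and 59.6 at 48 h in BL+Kyn roots, against 138 and 135, 119 and 124, and 97.5 and 138 in Kyn roots at these times. All 6 BL+Kyn libraries lay below all 6 Kyn libraries, and the gene fell to 0.52 of its Kyn level (log2 -0.94, SE 0.13, adjusted p = 7.96e-05). CPD, the P450 of C-3 oxidation (chromosome 5, 1702688 to 1706780), had 503 and 554 at 12 h, 481 and 360.0 at 24 h and 472 and 265 at 48 h in BL+Kyn roots, against 756 and 652, 569 and 499, and 572 and 579 in Kyn roots at these times. Each pair of CPD values was lower in BL+Kyn at its own time, while the ranges over all times overlapped (log2 -0.49, SE 0.11, adjusted p = 0.00288). BR6OX1, a close relative of BR6OX2, fell by 0.74, a call lost without the second Kyn library of 12 h, and DWF1, which acts in the sterol steps before, fell by 0.32. ROT3, another P450 of the pathway, rose by 0.31, a call that was lost without any of 4 single libraries. DWF4, the C-22 hydroxylase (chromosome 3, 18814140 to 18817244), ranged from 56.7 to 95.0 (median 66.4) in BL+Kyn roots and 83.8 to 105 (median 91.3) in Kyn roots, was lower in 6 of 6 BL+Kyn libraries than the Kyn mean of its time, and was not called (log2 -0.43, SE 0.17, adjusted p = 0.0608). In all, 1 of 10 synthesis genes rose and 4 fell, with a median of -0.24 against 0.01 over all tested genes, and 3 fell without the second Kyn library of 12 h.

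Inactivation genes stood higher. BAS1, a P450 that hydroxylates active brassinosteroids (chromosome 2, 11380492 to 11383612), had 165 and 186 at 12 h, 153 and 196 at 24 h and 197 and 190.0 at 48 h in BL+Kyn roots, against 124 and 60.2, 97.0 and 103, and 106 and 105 in Kyn roots at these times. The BL+Kyn values all lay above the Kyn values, at 1.85 times their level (log2 0.89, SE 0.14, adjusted p = 0.000218). BAT1, an acyltransferase that lowers active brassinosteroid levels, rose by 0.77 on average, with 0.21 at 12 h, 0.55 at 24 h and 1.56 at 48 h. CYP72C1, a relative of BAS1, rose by 0.47, a call that 7 single libraries could end. UGT73C5 and UGT73C6 of the same list were too low to test, so all 3 tested members of 5 rose.

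Of the perception and signalling genes, 9 of 12 were tested, of which 3 rose and 2 fell, against 15.5% and 14.8% of all tested genes. BRI1 had 302 to 463 (median 431) in BL+Kyn roots and 467 to 583 (median 498) in Kyn roots, ranges that did not overlap, with a fall of 0.33 that was lost without any of 6 single libraries. BRL3, a BRI1 relative of vascular cells, fell by 1.02, whereas BIN2 rose by 0.42, the co-receptor gene BAK1 by 0.23 and the signalling kinase gene BSK1 by 0.23. BSK1 lost its call without any of 7 single libraries. BZR1 and BES1 had log2 changes of -0.09 and 0.13 and were not called. None of the 3 tested bHLH factors downstream of brassinosteroids (BEE2, PRE6 and IBH1) was called.

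BZR1 is known to bind the letters CGTGTG or CGTGCG, the brassinosteroid response element. Either form, on either strand, was sought between 1000 bases before and 200 bases after the RefSeq gene start (TAIR10.1 build). A match was found in 5 of 10 synthesis genes, 2 of 5 inactivation genes and 9 of 22 root hair genes (40.9%). The share was 25.7% of 27434 protein-coding genes, 26.4% of those called higher and 27.8% of those called lower. These lists are small, and no share was tested. Since BZR1 is known to bind the element and to repress synthesis genes, their share may be partly set beforehand and is no result of these data. The matches of the 3 synthesis genes discussed above follow, to give the letters at stake, each as 30 bases in the direction of transcription, with the element in capitals. They begin at base 163 after the start in CPD, at base -458 in DWF4 and at base -413 in ROT3, and no match was in the window of BR6OX2. The RefSeq start of CPD lies before that of the deposited table, so its match falls outside the gene as the table places it.
CPD (chr5:1706769-1706798, minus strand): gcagaaacccccCGTGTGcccactctcccc
DWF4 (chr3:18817846-18817875, minus strand): tctgtctttgacCGCACGctcgtgtagggg
ROT3 (chr4:17192903-17192932, minus strand): caacttaattacCGTGTGatacagtcaatg
Of these 3 genes CPD fell, ROT3 rose, with a call lost without any of 4 single libraries, and DWF4 was not called. CYP90D1 and STE1, which also held a match, were not called. Whether the element has a part in these changes was not tested.

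**Figure D2:**
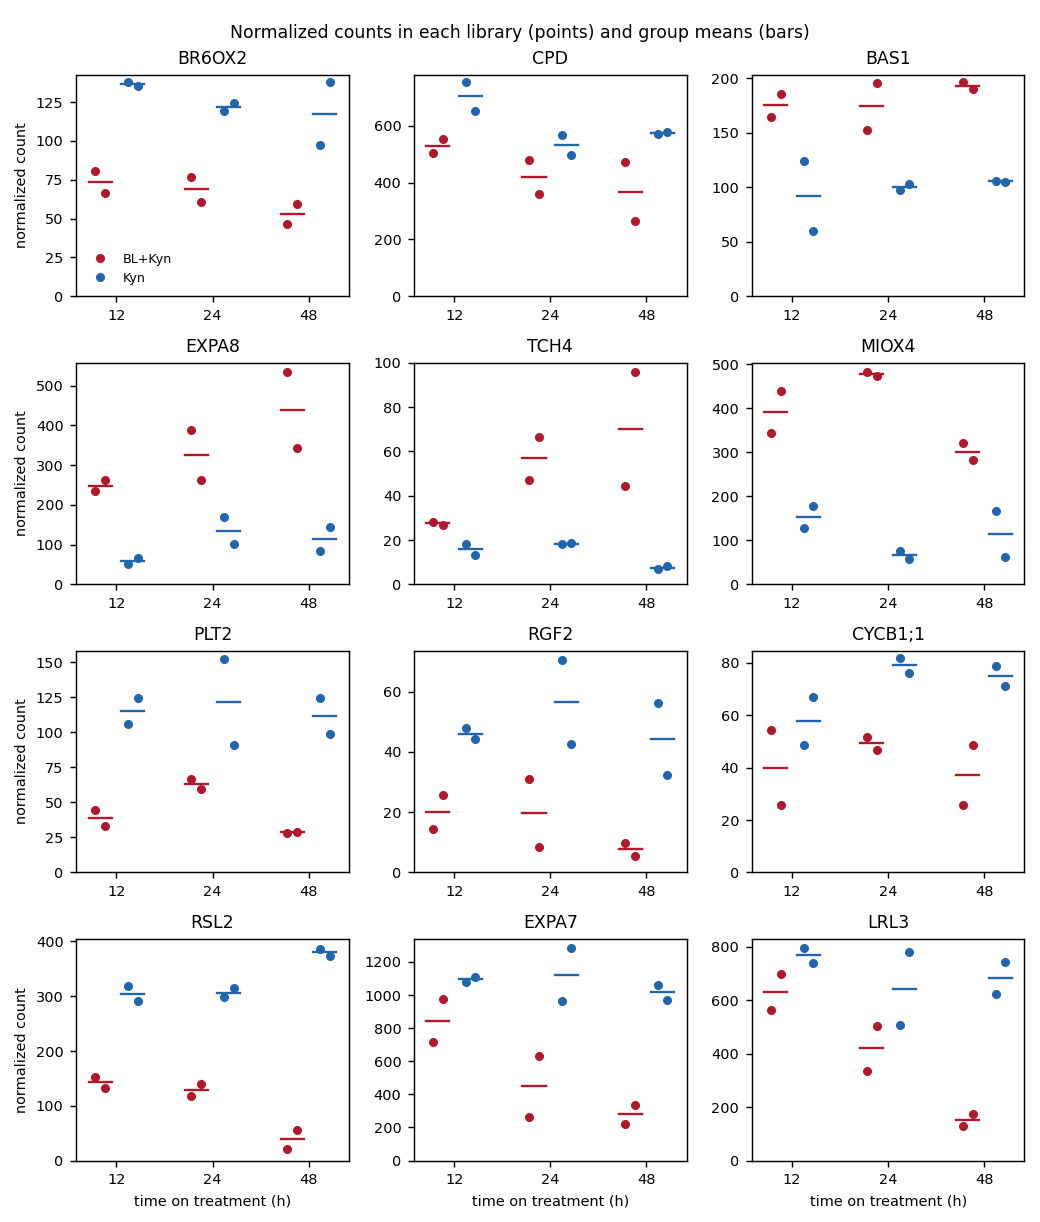
Normalized counts of 12 genes (linear axes from 0) against the time on treatment, with BL+Kyn left of Kyn, 1 point per library and a bar at the mean of the 2 libraries. BR6OX2, PLT2, RGF2 and RSL2 are lower in all 6 BL+Kyn libraries than in any Kyn library, and BAS1, EXPA8, TCH4 and MIOX4 are higher.

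Wall-loosening genes of elongating cells were among the larger rises. EXPA8, an expansin (chromosome 2, 16948863 to 16950557), had 234 and 263 at 12 h, 388 and 262 at 24 h and 533 and 343 at 48 h in BL+Kyn roots, against 50.5 and 66.9, 169 and 100.3, and 84.6 and 144 in Kyn roots at these times. It rose without overlap between the groups (log2 1.77, SE 0.19, adjusted p = 1.08e-05). EXPA1 rose by 1.45, EXPA17 by 0.93, EXLA1 by 0.72 and EXPA9 by 0.23, while EXPA15 fell by 0.94 and EXPA3 by 1.26. Thus 6 of 19 tested expansins outside root hairs rose, against 15.5% of all genes, and 2 fell, a share below the 14.8% of all genes. EXPA9 lost its call without any of 8 single libraries. EXLA3, an expansin-like gene and the second largest rise of all under the rule for named genes, ranged from 17.3 to 63.8 (median 38.9) in BL+Kyn roots and 1.62 to 14.8 (median 6.96) in Kyn roots. TCH4, a xyloglucan endotransglucosylase/hydrolase (XTH) known to be induced by touch and by brassinosteroid, had 28.2 and 26.9 at 12 h, 47.2 and 66.6 at 24 h and 44.3 and 95.7 at 48 h in BL+Kyn roots, against 18.1 and 13.4, 18.1 and 18.7, and 7.05 and 8.09 in Kyn roots at these times. Its values did not overlap and rose as far (log2 1.76, SE 0.31, adjusted p = 0.000408). In the XTH list 8 of 21 tested genes rose, against 15.5% of all genes, and 3 fell, a share near the 14.8% of all genes. Among the rises were XTR6 by 1.17, XTH24 by 0.93 and XTH30 by 0.70. XTH31 rose as well, although its highest BL+Kyn value, 25306 in the second library of 48 h, was far above the 7146 of the first.

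MIOX4, which oxidizes myo-inositol to glucuronate, a precursor of wall polysaccharides (chromosome 4, 13297698 to 13300387), had 345 and 439.6 at 12 h, 483 and 473 at 24 h and 322 and 282 at 48 h in BL+Kyn roots, against 129 and 178, 75.2 and 57.5, and 166 and 61.5 in Kyn roots at these times. Its fold was 3.79 (log2 1.92, SE 0.31, adjusted p = 0.00022), and MIOX2 rose by 0.49. None of the UDP-glucose dehydrogenase genes of the other route to UDP-glucuronate was called. For cellulose of the growing wall, KOR1, CESA2, CTL2 and CESA3 rose by 0.17 to 0.50, CESA3 with a call lost without any of 5 libraries, and 0 of 9 fell. Aquaporins, the water channels of plasma membrane and vacuole, rose in 12 of 18 genes with a median of 0.52 and no fall. TIP2;2, a vacuolar channel, ranged from 12107 to 45835 (median 20492) in BL+Kyn roots and 9413 to 13249.7 (median 11894) in Kyn roots, and PIP1;5, one of the plasma membrane, from 2431 to 4302 (median 3197) in BL+Kyn roots and 1938 to 2219.8 (median 2157) in Kyn roots. The aquaporin sum at 48 h was 418098 and 187229 in the 2 BL+Kyn libraries, against 184382 and 189306 in Kyn, so that the second BL+Kyn library lay between the Kyn values. Without the first BL+Kyn library of 48 h 11 of the 12 were called on average.

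**Figure D3:**
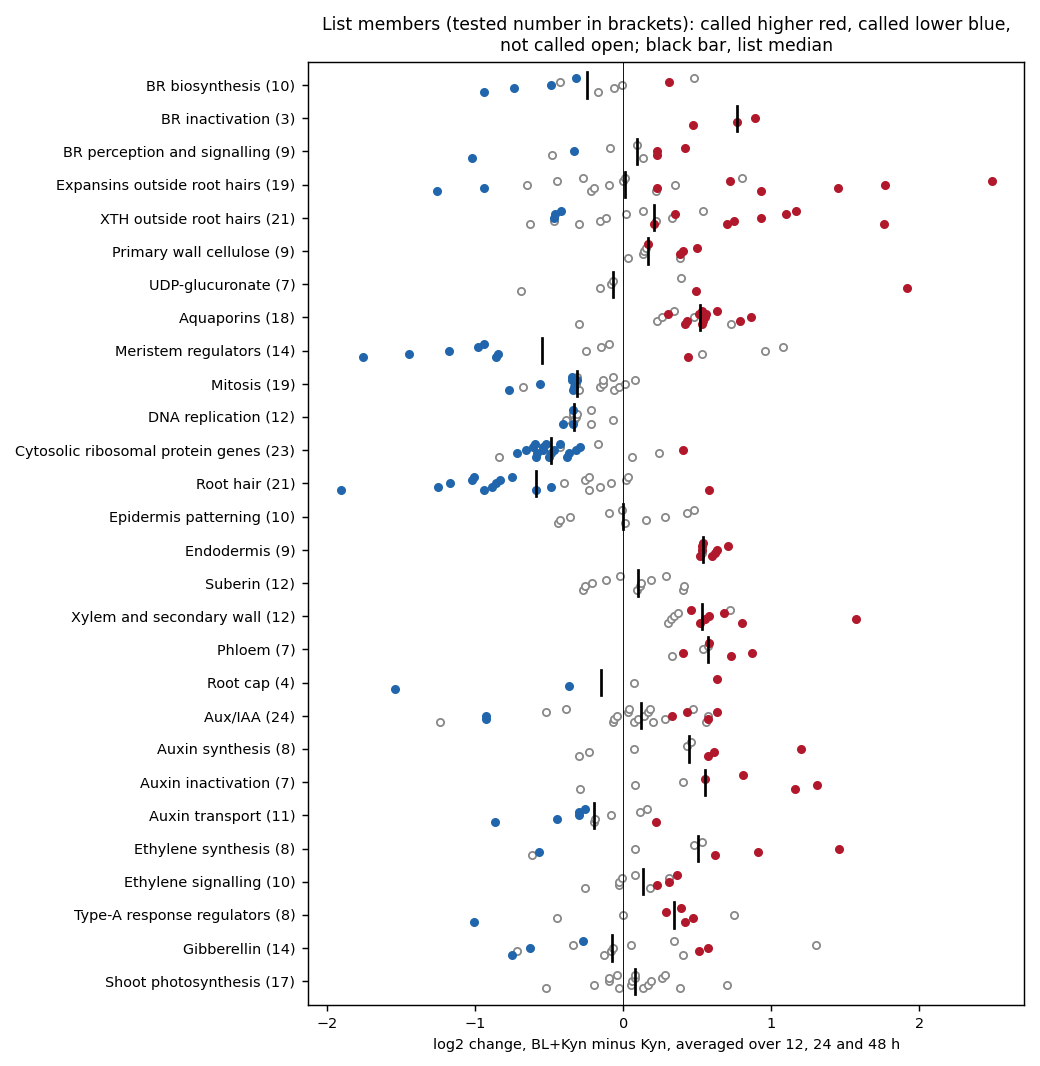
Log2 changes (BL+Kyn minus Kyn, averaged over 3 times) of the tested members of 28 gene lists, 1 point per gene, filled where called, with a black bar at the list's median. Root hair and meristem genes lie mostly to the left (medians -0.59 and -0.55), endodermis, phloem and xylem genes to the right (0.54, 0.57 and 0.53).

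Among the genes that maintain the meristem 7 of 14 tested fell. PLT2, an AP2-type factor of the stem cell zone (chromosome 1, 18977284 to 18980618), had 44.8 and 33.3 at 12 h, 66.8 and 59.5 at 24 h and 28.1 and 29.1 at 48 h in BL+Kyn roots, against 106 and 124, 152 and 90.9, and 125 and 98.7 in Kyn roots at these times. The groups did not overlap and BL+Kyn stood at 0.37 of Kyn (log2 -1.45, SE 0.15, adjusted p = 9.18e-06). PLT1 fell by 0.86 and AIL6 by 0.98, as did BBM, all of the same family. BBM lost its call without any of 3 single libraries. RGF2, which encodes a root meristem growth factor peptide (chromosome 1, 4668443 to 4669471), ranged from 5.55 to 30.9 (median 12.1) in BL+Kyn roots and 32.4 to 70.4 (median 46.1) in Kyn roots, also without overlap (log2 -1.76, SE 0.27, adjusted p = 0.000161). RGF3 fell by 0.94 and MGP, a zinc finger partner of SHR and SCR, by 0.85. UPB1, a bHLH factor that promotes the transition from division to elongation, rose by 0.44. WOX5, the quiescent centre gene, had 3.85 to 49.9 (median 11.8) in BL+Kyn roots and 3.53 to 17.4 (median 10.2) in Kyn roots and was not called (log2 0.53), nor were SHR, SCR and JKD (log2 -0.15, -0.25 and -0.10). In this list 7 genes fell and 1 rose also without the second Kyn library of 12 h.

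Part of the cell division genes fell. CYCB1;1, a mitotic cyclin, ranged from 25.6 to 54.4 (median 47.7) in BL+Kyn roots and 48.6 to 81.8 (median 73.7) in Kyn roots and fell by 0.77 (SE 0.18, adjusted p = 0.00393). KNOLLE, the syntaxin of cytokinesis, fell by 0.34 and CDKB1;2 by 0.56, the latter with a call lost without any of 5 single libraries. In the mitosis list 7 of 19 genes fell and none rose (median -0.31), and 4 fell without the second Kyn library of 12 h and 3 without the first BL+Kyn library of 48 h. The range over all single libraries was 2 to 8. Of 12 tested DNA replication genes, PCNA1, TSO2 and PCNA2 fell, by 0.34 to 0.41, against falls in 14.8% of all genes, while the list's median was -0.33. Leaving out 1 library gave 2 to 8 falls in this list, with 8 without the second BL+Kyn library of 48 h, and the call of PCNA2 was lost without any of 4 libraries. Among D cyclins CYCD1;1 rose by 0.70 and CYCD3;3 and CYCD2;1 fell by 0.31 and 0.27, both calls being lost without the second Kyn library of 12 h. Of the genes that restrain the cycle or start endocycles, KRP1 and KRP6 rose by 0.72 and 0.70, and LGO, FZR2 and KRP7 fell by 0.29 to 0.60. The calls of KRP1 and KRP7 were lost without that library too. Cytosolic ribosomal protein genes, taken as the 27 whose reference description says 40S or 60S ribosomal protein, fell in 17 of 23 tested and rose in 1, with a median of -0.49. AT3G44590, an acidic protein of the large subunit, ranged from 974 to 1517 (median 1423) in BL+Kyn roots and 1983 to 2423 (median 2197) in Kyn roots.

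Root hair genes had the lowest median of the 35 lists, -0.59, with 12 of 21 tested genes lower and 1 higher. RSL2, a bHLH factor of hair growth (chromosome 4, 16239363 to 16241137), had 153 and 133 at 12 h, 118 and 140.3 at 24 h and 21.6 and 55.5 at 48 h in BL+Kyn roots, against 318 and 290.4, 298 and 314, and 387 and 374 in Kyn roots at these times. The groups were apart at every time and furthest at 48 h (log2 -1.91, SE 0.17, adjusted p = 1.84e-06). The factor above it, RHD6, fell by 0.49 without overlap of the groups, LRL3, a further bHLH factor of hairs, fell by 1.02, and LRL1 rose by 0.58. RSL4 and LRL2 were not called (log2 -0.23 and 0.02). EXPA7, an expansin of hair walls (chromosome 1, 4276519 to 4277899), had 714 and 975 at 12 h, 262 and 633 at 24 h and 218 and 338 at 48 h in BL+Kyn roots, against 1079 and 1111, 962 and 1286, and 1059 and 973 in Kyn roots at these times. It fell by 1.25 (SE 0.18, adjusted p = 9.64e-05), with the lowest values at 24 and 48 h. EXPA18, its close relative, ranged from 110.1 to 292 (median 189) in BL+Kyn roots and 301 to 436 (median 352) in Kyn roots with no overlap and fell by 1.01. Lower too were the wall genes XTH14, XTH13 and XTH12 (log2 -1.17, -0.94 and -0.59), the extensin-like LRX1 (-0.89), the proline-rich PRP1 and PRP3 (-0.86 and -0.75) and COW1 (-0.83), a lipid transfer protein of hair tips. XTH12 and XTH13 were not called without the second Kyn library of 12 h, where 10 root hair genes fell. RHS14, a root hair specific gene outside the list, ranged from 16.9 to 51.3 (median 29.4) in BL+Kyn roots and 74.2 to 113 (median 96.6) in Kyn roots and was among the 8 largest falls. None of 10 genes that pattern hair and non-hair cells was called (median 0.00).

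Promoters of hair genes are known to carry the root hair element, a motif that is bound by factors of the RHD6 and RSL family. In the window from 250 bases before to 50 after the gene start it was found, on either strand, in 5 of 22 root hair genes (22.7%), against 0.868% of 27434 protein-coding genes, 1.46% of those called lower, 0.907% of those called higher and 0.795% of those not called. Since the element is known from promoters of hair genes, its higher share in this list was largely set beforehand and is no result of these data. The windows with the element are printed for 4 of the 5 root hair genes, all of which fell, in the direction of transcription with the element in capitals.
EXPA7 (chr1:4276255-4276554, plus strand): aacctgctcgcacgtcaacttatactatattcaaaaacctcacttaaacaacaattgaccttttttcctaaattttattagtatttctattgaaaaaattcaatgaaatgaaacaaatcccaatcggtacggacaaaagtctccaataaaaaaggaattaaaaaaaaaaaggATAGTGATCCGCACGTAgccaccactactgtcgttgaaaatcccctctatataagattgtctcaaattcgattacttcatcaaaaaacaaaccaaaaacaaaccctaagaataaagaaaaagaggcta
EXPA18 (chr1:23331313-23331612, plus strand): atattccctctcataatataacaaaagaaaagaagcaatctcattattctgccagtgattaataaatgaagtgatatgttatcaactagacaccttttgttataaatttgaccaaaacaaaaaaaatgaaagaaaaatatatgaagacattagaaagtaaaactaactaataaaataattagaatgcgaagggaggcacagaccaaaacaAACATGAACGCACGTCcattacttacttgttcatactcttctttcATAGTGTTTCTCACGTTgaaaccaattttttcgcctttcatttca
LRX1 (chr1:4069742-4070041, plus strand): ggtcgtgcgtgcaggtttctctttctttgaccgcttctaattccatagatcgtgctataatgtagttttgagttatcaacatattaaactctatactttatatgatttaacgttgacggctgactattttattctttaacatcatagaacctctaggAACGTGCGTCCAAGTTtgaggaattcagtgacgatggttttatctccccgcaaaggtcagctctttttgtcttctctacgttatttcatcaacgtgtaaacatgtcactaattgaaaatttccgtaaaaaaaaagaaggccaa
PRP3 (chr3:23182472-23182771, plus strand): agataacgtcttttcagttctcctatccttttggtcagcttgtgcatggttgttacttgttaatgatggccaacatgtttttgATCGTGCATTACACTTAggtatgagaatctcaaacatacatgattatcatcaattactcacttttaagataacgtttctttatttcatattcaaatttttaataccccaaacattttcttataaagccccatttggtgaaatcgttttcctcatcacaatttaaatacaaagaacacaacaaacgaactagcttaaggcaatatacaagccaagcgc
The first base of the element lies at -78 in EXPA7, at -40 and 6 in EXPA18, at -93 in LRX1 and at -167 in PRP3, counted from the RefSeq gene start of TAIR10.1. The fifth gene is PRP1. In LRX1 and PRP3 the element reads on the other strand. RSL2, XTH14, XTH13, XTH12 and COW1 fell with no match in this window.

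Many genes of endodermis, xylem and phloem rose. Of 9 endodermis genes 8 rose and none fell, with changes of 0.52 to 0.71 among all 9. The rise was uneven between libraries. Against the Kyn mean of 48 h, the median of these genes was 0.87 in the first BL+Kyn library and 0.09 in the second. MYB36, the factor that starts Casparian strip formation (chromosome 5, 23334817 to 23336566), had 429 and 415 at 12 h, 415 and 363 at 24 h and 420.0 and 322 at 48 h in BL+Kyn roots, against 358 and 276, 216 and 203, and 288 and 220.1 in Kyn roots at these times. All BL+Kyn values stood above the highest Kyn value, 358, except that of the second library of 48 h. CASP1, a scaffold protein of the strip, rose by 0.54 and SGN3, a receptor kinase, by 0.63. Xylem genes rose in 7 of 12, with XCP2, a protease of dying vessels, from 1182 to 2296 (median 1584) in BL+Kyn roots and 661 to 1305 (median 868) in Kyn roots, IRX1 (0.68), XCP1 (0.58), the secondary wall gene CESA4 (0.55), the laccases LAC4 and LAC17 (0.46 and 0.52) and MYB83 (1.57). Phloem genes rose in 4 of 7: the sucrose carrier SUC2 by 0.87, OPS by 0.73, CVP2 by 0.58 and SMXL5 by 0.40. SMXL5 lost its call without any of 9 single libraries and CVP2 without 3, so that 2 to 4 phloem genes rose with 1 library left out. MYB83 lost its call without any of 5. At 12 h the medians of endodermis and xylem genes were 0.45 and 0.29, and 0.24 and 0.01 without the second Kyn library of 12 h. In the root cap list FEZ fell by 1.54 and SMB by 0.37 while BRN2, a later cap factor, rose by 0.63. SMB lost its call without any of 8 single libraries, among them the second Kyn library of 12 h, and FEZ without 1. CASP1, SGN3, CESA4, EXLA1, PCNA2, FER1 and TIP2;1 overlap another gene on the opposite strand, and ETR1 one on its own strand. Since the strand setting of the counting is not given in the sources used here, reads of the overlapping genes cannot be told apart.

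The median of the suberin genes changed sign with time. It was -1.49 at 12 h, 0.36 at 24 h and 1.06 at 48 h, so that the average, 0.10, held none of 12 calls, while 3 fell at 12 h and 6 rose at 48 h. None of the 12 was called at 12 h without the second Kyn library of 12 h, and at 48 h 5 were called without the first BL+Kyn library and none without the second. CYP86A1, a fatty acid hydroxylase of suberin monomers, had 66.8 and 47.4 at 12 h, 563 and 602 at 24 h and 1644 and 6097 at 48 h in BL+Kyn roots, against 223 and 302, 439 and 614, and 410.1 and 947 in Kyn roots at these times. Its 2 values at 12 h were below both Kyn values and those at 48 h above them. A change with time was called in 6 of the 12 genes by the moderated F test, against 180 of all tested genes (0.950%), and in 1 without the second Kyn library of 12 h. The 12 h median without that library was -1.68. FAR4, a fatty acyl reductase (log2 -2.03 at 12 h, -0.10 at 24 h and 1.37 at 48 h) and ABCG20 (-2.14 at 12 h, 0.04 at 24 h and 1.29 at 48 h) followed the same course.

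Among the genes called on average the fitted changes were larger at later times, with no test of that size. Over the 5744 called genes the median absolute log2 change was 0.343 at 12 h, 0.498 at 24 h and 0.646 at 48 h, and 5350, 5700 and 5666 of them had the sign of the average at these times. A larger spread between replicates, as between the 2 BL+Kyn libraries of 48 h, also enlarges such a median, and its part was not tested. These genes were chosen by the average over the same times, which favours genes with a large difference at any of them. That average contains each time, so the medians and the agreement in sign are partly set by the choice of genes. How far the choice shaped the rise of the medians was not tested. The test of change with time called 180 genes (0.950%), and 40 without the second Kyn library of 12 h. Of 509 genes higher at 24 h, 348 (68.4%) were also higher at 48 h, where they made up 16.4% of 2122; of 508 lower genes, 391 (77%) were lower at 48 h, 19.4% of 2019. At 24 h the called genes were 50.0% higher, a share that moved both ways with the setting. It was 38.3% when libraries were scaled to equal totals. With only the 12 BL+Kyn and Kyn libraries in the fit it was 68.6%, of 70 genes called. At 12 h 1 gene, TIP2;1, was called without the second Kyn library (log2 0.99, adjusted p = 0.0413). It had 10173 and 10798 at 12 h, 8183 and 8554 at 24 h and 8377 and 8475 at 48 h in BL+Kyn roots, against 5279 and 5854, 6285 and 5363, and 7462 and 6816 in Kyn roots at these times. The clearest changes with time were those of LCR69, PDF2.5 and AGP13. LCR69, of a family of small cysteine-rich proteins, had 2607 and 2699 at 12 h, 4720.3 and 5833 at 24 h and 8235 and 7873 at 48 h in BL+Kyn roots, against 3198 and 3867, 3082 and 3813, and 2431 and 2120.3 in Kyn roots at these times. Its BL+Kyn values were below both Kyn values at 12 h and above them at 24 and 48 h. PDF2.5, a defensin-like gene, had log2 changes of -0.14 at 12 h, -0.58 at 24 h and -1.37 at 48 h, and AGP13, an arabinogalactan protein, 0.67 at 12 h, 0.19 at 24 h and -0.67 at 48 h.

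**Figure D4:**
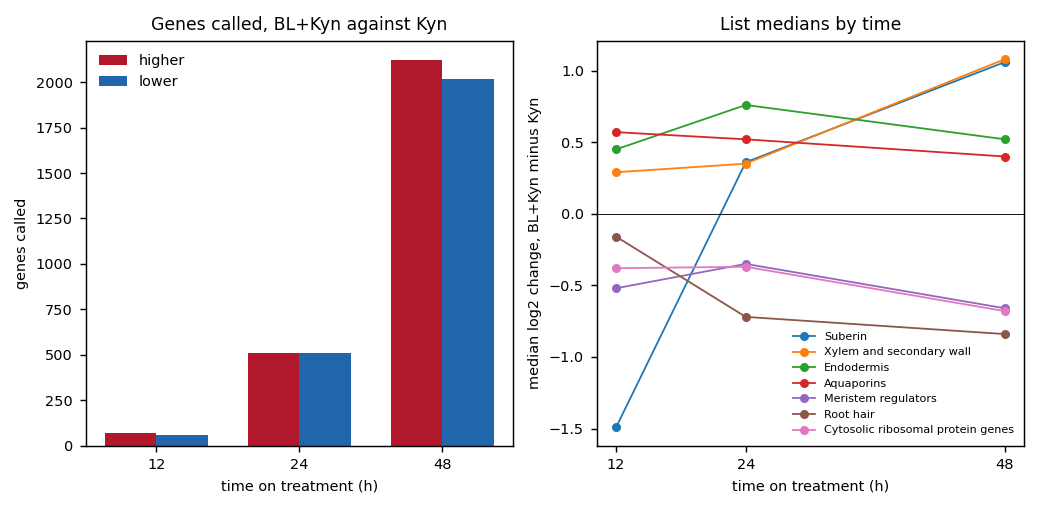
Left, genes called higher and lower in BL+Kyn against Kyn at 12, 24 and 48 h (bars from 0), from 71 and 57 at 12 h to 2122 and 2019 at 48 h. Right, the median log2 change of 7 gene lists at the 3 times, with suberin moving from -1.49 to 1.06 and root hair genes from -0.16 to -0.84.

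Hormone genes outside the brassinosteroid pathway were changed in part. YUC8, a flavin monooxygenase of auxin synthesis (chromosome 4, 14192583 to 14194256), had 453 and 449.9 at 12 h, 459.5 and 422 at 24 h and 444 and 363 at 48 h in BL+Kyn roots, against 314 and 264, 382 and 290.1, and 239 and 227 in Kyn roots at these times. It rose by 0.61 (SE 0.10, adjusted p = 0.00023), as did YUC3 by 0.57 and YUC9, whose call was lost without any of 5 single libraries, and no gene of 8 tested fell. TAA1, the gene of the enzyme that Kyn inhibits, had 48.9 and 53.8 at 12 h, 33.1 and 39.7 at 24 h and 17.3 and 16.6 at 48 h in BL+Kyn roots, against 28.6 and 44.2, 31.4 and 46.8, and 37.6 and 51.8 in Kyn roots at these times, with no call on average (log2 -0.30, SE 0.15, adjusted p = 0.153) and a fall of 1.33 at 48 h. The conjugating enzyme genes GH3.17, GH3.2, GH3.1 and GH3.3 rose, by 0.55, 1.31, 0.81 and 1.16, but GH3.3 in 3 of 6 libraries, and its counts were 0 in both Kyn libraries of 48 h. GH3.1 lost its call without any of 7 single libraries and GH3.3 without 9, and the list held 2 to 4 rises with 1 library left out. Among 24 tested Aux/IAA repressors 4 rose (IAA28 by 0.63, IAA17 by 0.57, IAA13 by 0.43 and IAA14 by 0.33) and 2 fell (IAA30 and IAA31, both by 0.93), a share of rises near the 15.5% of all genes and a share of falls below their 14.8%. IAA30 lost its call without any of 6 single libraries and IAA14 without any of 3. IAA19, an early auxin-induced gene, ranged from 7.30 to 20.5 (median 13.2) in BL+Kyn roots and 10.9 to 16.2 (median 14.7) in Kyn roots and was not called (log2 -0.07, adjusted p = 0.79). The carriers LAX2, ABCB19, PIN2, LAX3 and PIN3 fell by 0.26 to 0.87 and ABCB1 rose by 0.22. PIN3 and ABCB1 were not called without the second Kyn library of 12 h.

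For ethylene, ACS5, which makes its precursor (chromosome 5, 26330746 to 26332812), had 131 and 115 at 12 h, 129 and 136 at 24 h and 134 and 112 at 48 h in BL+Kyn roots, against 40.5 and 24.1, 62.8 and 54.8, and 59.9 and 42.1 in Kyn roots at these times. All BL+Kyn values were above 112 and all Kyn values below 63 (log2 1.46, SE 0.17, adjusted p = 1.76e-05). ACS6 rose by 0.91, a call lost without the second Kyn library of 12 h, ACO4 fell by 0.57, and the receptor gene ETR1 and the signalling genes EIN3 and EBF1 rose by 0.23 to 0.36. Of the type-A response regulators of cytokinin, ARR3 fell by 1.01 and ARR5, ARR6, ARR8 and ARR9 rose by 0.29 to 0.47. GAI and RGA, repressors of gibberellin response, fell by 0.63 and 0.27, and their receptor genes GID1B and GID1C rose by 0.57 and 0.51. GA20ox3, of gibberellin synthesis, fell by 0.75. In this list 2 of 14 tested genes rose and 3 fell, shares near or above the 15.5% and 14.8% of all genes, and 1 fell without the second Kyn library of 12 h. GA20ox3, RGA and GID1C lost their calls without any of 7, 5 and 6 single libraries. LBD18, a factor of lateral root formation, rose by 0.59 but lost its call without any of 10 single libraries. FIT, the regulator of iron uptake, ranged from 4760.4 to 8268 (median 5641) in BL+Kyn roots and 2980.2 to 4365 (median 3867) in Kyn roots without overlap and rose by 0.71. PYE and ABCG37 of the iron list rose by 0.47 and 0.22, and FER1, a ferritin, fell by 0.71. ABCG37 and FER1 were not called without the second Kyn library of 12 h. The immunity genes FMO1, PAD4 and ICS1 rose by 1.86, 0.57 and 0.52 (3 of 8), ICS1 with a call lost without any of 6 libraries and FMO1 in 4 of 6 libraries, with 12.4 and 3.85 at 12 h, 30.9 and 55.3 at 24 h and 154 and 205 at 48 h in BL+Kyn roots, against 20.5 and 12.1, 5.71 and 10.7, and 11.8 and 4.86 in Kyn roots at these times. JAZ1, a jasmonate repressor, rose by 0.45. It was the only call among 6 tested jasmonate genes, a share near the 15.5% of all genes. The median of that list was -0.04 and its lowest change, not called, was -1.81.

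The largest rise under the rule for named genes was that of CBP60G, a calmodulin-binding factor of salicylate synthesis (chromosome 5, 9475682 to 9478751). It had 11.7 and 20.5 at 12 h, 41.6 and 58.1 at 24 h and 59.4 and 45.8 at 48 h in BL+Kyn roots, against 1.90 and 0, 7.61 and 4.01, and 8.23 and 1.62 in Kyn roots at these times, with no overlap (log2 3.22, SE 0.51, adjusted p = 0.000191). ASN1, an asparagine synthetase, had 710.4 and 778 at 12 h, 453 and 510.2 at 24 h and 433 and 115 at 48 h in BL+Kyn roots, against 179.5 and 249, 104 and 70.9, and 95.2 and 29.1 in Kyn roots at these times. ASN1 rose 4.33-fold, and its values were lower at later times in both groups. IGMT2, an indole glucosinolate methyltransferase, ranged from 257 to 729.9 (median 303) in BL+Kyn roots and 40.5 to 153 (median 74.6) in Kyn roots, and ATPMEPCRB, of the pectin methylesterase family, from 199.9 to 494 (median 392) in BL+Kyn roots and 35.2 to 205 (median 90.2) in Kyn roots. The remaining ones were CYP706A1 (log2 2.22), CAF1a (2.11), EXLA3 (2.49) and PP2-B14 (2.29), whose call 7 single libraries could end. The largest fall was that of ATGSTF13, a glutathione transferase (chromosome 3, 23217425 to 23218246), with 9.65 and 8.97 at 12 h, 2.81 and 4.25 at 24 h and 3.24 and 16.6 at 48 h in BL+Kyn roots, against 50.5 and 29.4, 55.2 and 76.2, and 62.3 and 61.5 in Kyn roots at these times. Its highest BL+Kyn value, 16.6, was below its lowest Kyn value, 29.4 (log2 -2.89, SE 0.39, adjusted p = 5.37e-05). Next came RSL2, RGF2, scpl16 (-1.66), RHS14, TT10 (-1.53, lost without any of 5 libraries), PPa3 (-1.48) and MYB55, a MYB factor that ranged from 24.8 to 47.4 (median 33.0) in BL+Kyn roots and 80.3 to 107 (median 94.2) in Kyn roots.

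Far fewer genes were called for BL without Kyn, 357 (1.88%), of which 176 were higher (0.929%) and 181 lower (0.955%) than in mock. The genes higher in both tests numbered 142, which is 4.83% of those with Kyn and 80.7% of those without, and the genes lower in both 122 (4.35% and 67.4%), while 4 genes were called in opposite directions. The difference between the BL effects with and without Kyn was itself tested on the 24 libraries and called for 755 genes (3.98%), 315 upward (1.66%) and 440 downward (2.32%). It was called in 704 (12.9%) of the 5476 genes called with Kyn and not without. For most of those genes a different effect without Kyn was not shown. The second BL library of 12 h, also high in shoot transcripts, entered this test too. The count of 755 was 221 without the second Kyn library of 12 h and 3087 without the second BL+Kyn library of 48 h.

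Genes with a called difference include 8 of the 21 root hair genes, all downward (6 without the second Kyn library of 12 h). EXPA7 ranged from 1869.9 to 3859 (median 2747) in BL roots and 1587 to 2846 (median 1995) in mock roots (log2 0.38), and the difference between the effects was -1.62 (SE 0.25, adjusted p = 0.00448). For RSL2 it was -1.56 (SE 0.25, adjusted p = 0.00467) and for LRL3 -1.30 (SE 0.19, adjusted p = 0.00316). The root hair sum was 6446 to 15011 in BL+Kyn and 12145 to 19212 in Kyn, and 38246 to 72839 in BL and 38138 to 61035 in mock, so both groups with Kyn lay well below both without. For PLT2 the difference was -1.11 (SE 0.22, adjusted p = 0.0146) and for PLT1 -0.91 (SE 0.25, adjusted p = 0.0499), where PLT1 was not called without the second Kyn library of 12 h. EXPA8 and EXPA1 had log2 values of 0.21 and 0.17 for BL against mock, and their differences were 1.55 (SE 0.27, adjusted p = 0.00839) and 1.27 (SE 0.23, adjusted p = 0.0107). For ACS5 it was 1.35 (SE 0.24, adjusted p = 0.0097) and for XTH24 1.28 (SE 0.19, adjusted p = 0.00316). For 9 of 23 ribosomal protein genes the difference was called downward, and for 4 of 18 aquaporins upward, but for 2 and 0 without the second Kyn library of 12 h. MES15, a methyl esterase, and CCP3, a serpin, ranked with LRL3 as the smallest p values of this test, with differences of -1.41 (SE 0.19, adjusted p = 0.00316) and -1.62 (SE 0.22, adjusted p = 0.00316).

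For the brassinosteroid synthesis genes no difference between the effects was called. BR6OX2 had 57.9 to 88.9 (median 69.2) in BL roots and 96.4 to 132 (median 119) in mock roots, a log2 value of -0.74, against -0.94 with Kyn, and the difference was -0.20 (SE 0.19, adjusted p = 0.577). For CPD, at -0.49 with Kyn and -0.50 without, the difference was 0.01 (SE 0.16, adjusted p = 0.973). DWF4 was at -0.43 with Kyn and -1.09 without (adjusted p = 0.00129 for BL against mock), and the difference was 0.66 (SE 0.24, adjusted p = 0.114). The largest fall with Kyn, ATGSTF13, stood at -2.89 with Kyn and -2.98 without, with a difference of 0.09 (SE 0.55, adjusted p = 0.945), and MIOX4 at 1.92 and 2.39, with -0.47 (SE 0.44, adjusted p = 0.578). The wide errors of these 2 leave room for differences of size, and a p above the threshold does not show equal effects.

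**Figure D5:**
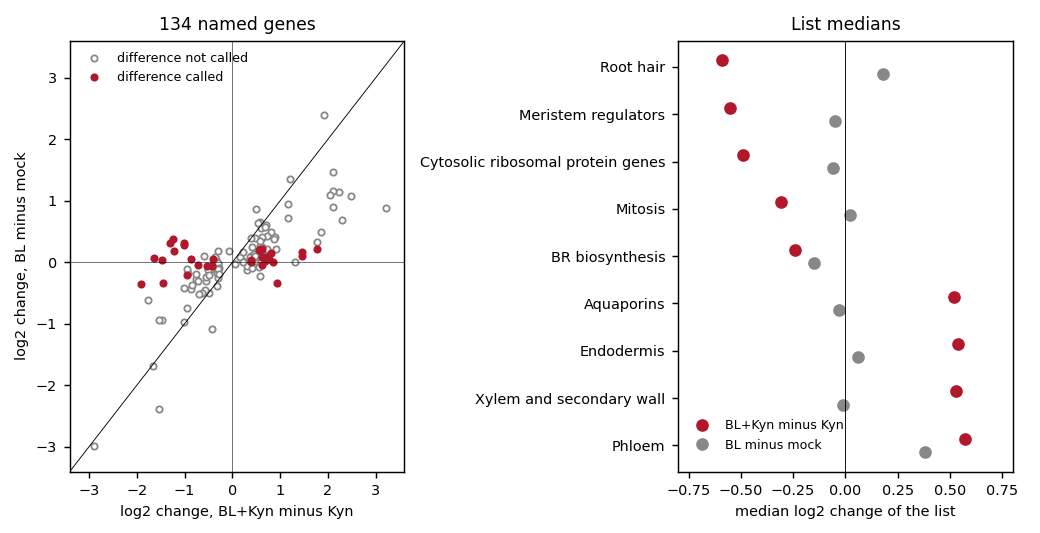
Left, log2 change of BL+Kyn against Kyn and of BL against mock for the 134 named genes, red where the difference between the 2 was called; the diagonal marks equal effects. Right, medians of 9 lists in both comparisons, with root hair genes at -0.59 with Kyn and 0.18 without.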

How the data were processed

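RNA was measured by CEL-Seq2, which counts reads at the 3′ end of transcripts and labels samples with barcoded primers, in 24 libraries of Arabidopsis root tips. The authors deposited 1 table of normalized counts, a depth-scaled signal per gene and library. Per the submitters' processing notes, HTSeq 0.6.1 and TopHat2 2.1.0 were among the tools, with DESeq2 1.18.1, FastQC 0.11.5, cutadapt 1.10 and Trim Galore also named. The strand setting of the counting and any collapse of molecular identifiers are not given in the sources used here. Of 40246 features 26800 had reads.

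Genes with a mean of at least 5 were kept (18948), and log2(normalized count + 1) was fitted with limma 3.58.1 (R 4.3.3) with a mean-variance trend and 12 group means over all 24 libraries, which share 1 estimate of the spread (12 residual degrees of freedom). The test is two-sided, and p-values were adjusted by Benjamini-Hochberg over all genes tested. Where the labels do not say what made replicates separate beyond their name, p-values measure the spread between these libraries. In every library 100.0% of values were a whole multiple of what 1 read is worth (tolerance 0.1 read), which gave the depth of each library. edgeR 4.0.16 and DESeq2 1.42.0 on those reads were alternatives, beside other pseudocounts, filters, scalings, sets of libraries and times. On simulated data of 18880 genes for the averaged comparison, 82.8% of 99 genes changed by 1 and 100% of 100 changed by 2 on the log2 scale were recovered, and 6 unchanged genes were called. The simulation gave all libraries the same spread beyond counting noise and each gene 1 base level at all times. It held few changed genes and no library rich in shoot transcripts, so these rates need not hold for the real libraries.

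Gene lists, 34 by locus (428 genes) and 1 by description, and the members were chosen with earlier results of these data known. The rule named the 8 largest rises and 8 largest falls (called, mean of 20 or more, a symbol, 1 sign at all 3 times), at most 4 called genes per list in order of p, 18 key genes, and the 3 smallest p for the change with time and for the difference to BL alone, 134 genes in all. Results of some named genes are not reported here. Other list members, the called ones included, were named after their values were seen. Gene coordinates are those of the deposited table, whose loci overlapped the RefSeq TAIR10.1 genes of the same name in 99.98% of 32834 cases and so were read as TAIR10. Symbols and promoter sequences, with the gene starts they are counted from, were taken from RefSeq TAIR10.1.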

Additional observations from a re-analysis of the deposited data

Results flagged for a closer look

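The effect of BL changed between 12 and 48 h in 9 named genes given here, by the moderated F test of limma over the 3 times. The values are the log2 difference of BL+Kyn and Kyn at 48 h minus that at 12 h. They were positive for CAF1a (4.99), GH3.3 (4.38), ATPMEPCRB (2.77) and LCR69 (2.23). They were negative for RSL2 (-2.33), LRL3 (-1.88), TAA1 (-1.85), AGP13 (-1.34) and PDF2.5 (-1.22). For GH3.3 both Kyn libraries of 48 h were at 0, and for CAF1a 1 of them was, so these fitted values depend on the pseudocount and are no bound. Without the second Kyn library of 12 h 5 of the 9 were called (RSL2, LRL3, LCR69, PDF2.5 and AGP13), and CAF1a, GH3.3, ATPMEPCRB and TAA1 were not.

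The effect of BL differed with and without Kyn in 31 named genes given here, by the test of the difference itself, given as the log2 effect with Kyn minus that without. Root hair genes were lower: EXPA7 by -1.62, EXPA18 by -1.33, LRL3 by -1.3, RSL2 by -1.56 and RHS14 by -1.7. Meristem and replication genes were lower too, with PLT2 at -1.11, PLT1 at -0.91 and PCNA1 at -0.46, and so were PPa3 (-1.51), EXPA15 (-0.74), MES15 (-1.41) and CCP3 (-1.62). The ribosomal protein genes AT3G44590, AT4G00810 and AT2G36170 stood at -0.68, -0.48 and -0.37. Wall genes were higher, with EXPA8 at 1.55, EXPA1 at 1.27, XTH24 at 1.28, XTH30 at 0.63 and KOR1 at 0.35. The xylem genes IRX1 and XCP2 stood at 0.67 and 0.64 and the endodermal SGN3 at 0.54. Hormone genes with positive values were ACS5 (1.35), BAT1 (0.72), IAA28 (0.42), IAA17 (0.36) and ARR8 (0.4). The aquaporins TIP2;2, PIP1;5 and TIP2;1 stood at 0.86, 0.68 and 0.36. The second Kyn and the second BL library of 12 h, both high in shoot transcripts, enter this difference with the same sign. The check that follows left out only the Kyn library, so the calls kept there may still depend on the BL library. Without the second Kyn library of 12 h 17 of the 31 were called. The 14 that were not called are BAT1, IAA17, IAA28, ARR8, XTH30, KOR1, IRX1, SGN3, TIP2;1, TIP2;2, PIP1;5, AT2G36170, AT4G00810 and PLT1.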

How the results depend on the processing

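The averaged count of 5744 was 2510 over 12 and 24 h alone, and leaving out 1 library gave 4420 to 7080. The other alternatives for it gave 4509 to 5925. At 12 h, 128 genes became 75 with no filter, 26 with 12 libraries in the fit, 486 with DESeq2, 41 with no mean-variance trend and 0 by limma without both libraries high in shoot transcripts (1180 genes at an unadjusted p under 0.05); 1 library left out gave 1 to 795. At 24 h, 1017 became 591, 70, 1526 and 251 under the first 4 of these settings, and 60 to 2291 with 1 library left out. At 48 h that range was 1764 to 5626. For the change with time, 180 became 96, 31, 478 and 15 under those 4 settings, 48 without both shoot-rich libraries, and 40 to 1095. For the difference to BL alone, 755 became 342 with no filter, 1360 with DESeq2, 100 with no trend, 91 without both shoot-rich libraries, 332 over 24 and 48 h, 20 over 12 and 24 h, and 151 to 3087. edgeR gave 5699, 114, 965, 4004, 155 and 767 for these 6 counts. A group left with 1 library was assumed to vary like the others. The ribosomal median stayed between -0.59 and -0.40 with 1 library left out. Reversed directions were seen for GH3.3 (-0.23) and TAA1 (0.22) over 12 and 24 h, AGP13 (-0.24) over 24 and 48 h, and IAA19 without BL+Kyn replicate 2 of 12 h (0.01) or replicate 1 of 24 h (0.02), whose values ran from -0.17 to 0.02 with 1 library left out. Of these only AGP13 was called there. Of 129 called named genes 26 lost their call without some library. The cause of these shifts was not tested.

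Replicate numbers were not treated as pairs: over 15 pairs of groups the correlation of same-numbered deviations was -0.121 to 0.145, with 1 over 0.1, and 6 of 12 libraries matched their own number best. With the replicate number as a block the counts were 5925 averaged, 203 at 12 h, 1178 at 24 h, 4340 at 48 h, 272 for the change with time and 945 for the difference.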
